A study of Arabidopsis thaliana and Cucumis sativus and Glycine max with 60 samples.

Results

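The differentiation zone (DZ) of the cucumber root was compared with the elongation zone (EZ) next to it. The comparison rests on the 21503 gene rows with cucumber locus names, of 311875 gene rows in the table of 3 zones, and on 6 of the 60 libraries of the series. Seedlings of cucumber (Cucumis sativus, cultivar Gy14) grew on agarose-solidified MS medium in constant light for 4 days after plating, and the growing tip of the primary root was cut along its length. The groups were DZ (3 libraries) and EZ (3 libraries), with the 3 libraries of the meristematic zone (MZ) beside them, and no group carried a treatment or a mutation. The series measured mRNA in root zones of 7 vascular plants, and its design text calls the 3 libraries of a zone biological replicates. The sources used here do not say whether a library pools several roots.

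In a growing root, cells divide in the meristem at the tip, then stop dividing and lengthen many times over by taking up water into the vacuole while the wall yields, and then acquire their final form. The differentiation zone is known for root hairs on the epidermis, Casparian strips and suberin in the endodermis, and lignified xylem vessels. A cell passes through the zones in time as the tip grows away from it, so that neighbouring zones are successive ages of the same cell files.

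The files give cucumber genes as locus numbers of the Gy14 annotation and do not pair them with gene names or products. The reference used here holds Arabidopsis only. For this reason pathway lists and zone markers were not looked up, the cut of the zones was not checked against marker genes, and only 2 genes that rose and 2 that fell are named. In bulk tissue, fewer cells of a type and less RNA per cell cannot be told apart.

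The zones were well separated in these libraries. Across the 16693 genes tested, log2 values of 2 DZ libraries correlated at 0.973 to 0.976 and those of 2 EZ libraries at 0.966 to 0.977, whereas a DZ and an EZ library correlated at 0.845 to 0.914. DZ and MZ libraries correlated at 0.648 to 0.683, below the 0.791 to 0.895 of EZ and MZ libraries. On a line on which the mean MZ library is 0 and the mean DZ library is 1, DZ replicates 1, 2 and 3 lay at 0.981, 0.969 and 0.994, each measured against the other libraries. EZ replicates 1, 2 and 3 lay at 0.655, 0.473 and 0.481. EZ replicate 1 thus stood nearer to the DZ than the other EZ libraries, and the counts of calls are also given without it. The files hold no read counts. Depth relative to MZ replicate 1, estimated from low values, was 1.07, 1.23 and 1.38 in the DZ libraries against 1.11, 1.1 and 1.31 in the EZ libraries.

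Many more genes were at least 2-fold higher in the DZ than were at least 2-fold lower. Of the 16693 genes tested, 2377 rose (14.2%) and 932 fell (5.58%), together 19.8%, at an adjusted p under 0.05 in limma with Benjamini-Hochberg adjustment and a change of at least 2-fold on the log2(RPKM + 1) scale. Rises made up 71.8% of these calls on the deposited scale, 62.1% after quantile normalization (2066 higher and 1263 lower) and 61.3% after the libraries were set to an equal median (2071 and 1310). Those scalings moved the median log2 change of all genes, -0.04 as deposited, by -0.14 and -0.12. Without EZ replicate 1, 2615 genes rose and 1191 fell. Genes were tested if they met a filter on low values. Of the 2377 rises, 587 (24.7%) met it only with the help of the DZ libraries, and 1 only with that of the EZ libraries. The same was not counted for the falls or by size of change. With no filter on low values 2452 genes rose and 930 fell, and rises were 72.5% of the calls. With a filter of 5 RPKM rises were 67.9% (1846 and 873).

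On the deposited scale the excess of rises lay in the large changes, and with no minimum change the directions were nearly even. Then 4461 genes were higher and 4284 lower in the DZ at an adjusted p under 0.05 in limma, a balance that depended on the scaling, since quantile normalization gave 3951 higher and 6031 lower and an equal median 3854 and 5622. Of those 4284 lower genes, 78.2% changed by less than 2-fold, against 46.7% of the 4461 higher ones. As deposited, all 3 DZ values lay above all 3 EZ values in 5035 genes and below them in 4991 genes. Higher calls outnumbered lower ones at each larger size as well, where size is the change on the log2(RPKM + 1) scale, which is smaller than the ratio of RPKM in low genes. At 4-fold or more there were 762 higher and 126 lower calls, against 1172 and 211 with a pseudocount of 0.1 RPKM. With the pseudocount of 1 RPKM, there were at 8-fold or more 225 and 41, at 16-fold or more 62 and 8, and at 32-fold or more 21 and 0. The median log2 change was 1.62 among the called rises and -1.27 among the called falls.

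Most tested genes changed by less than 2-fold between the zones, although 52.4% of all tested genes had an adjusted p under 0.05 in limma. The 95% interval of the change lay wholly inside 2-fold in either direction for 9797 genes (58.7%). The median standard error of a log2 change was 0.16. A change of 2-fold or more that did not pass the test was seen in 119 genes. In 3587 genes that were not called, the 95% interval reached 2-fold.

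**Figure D1:**
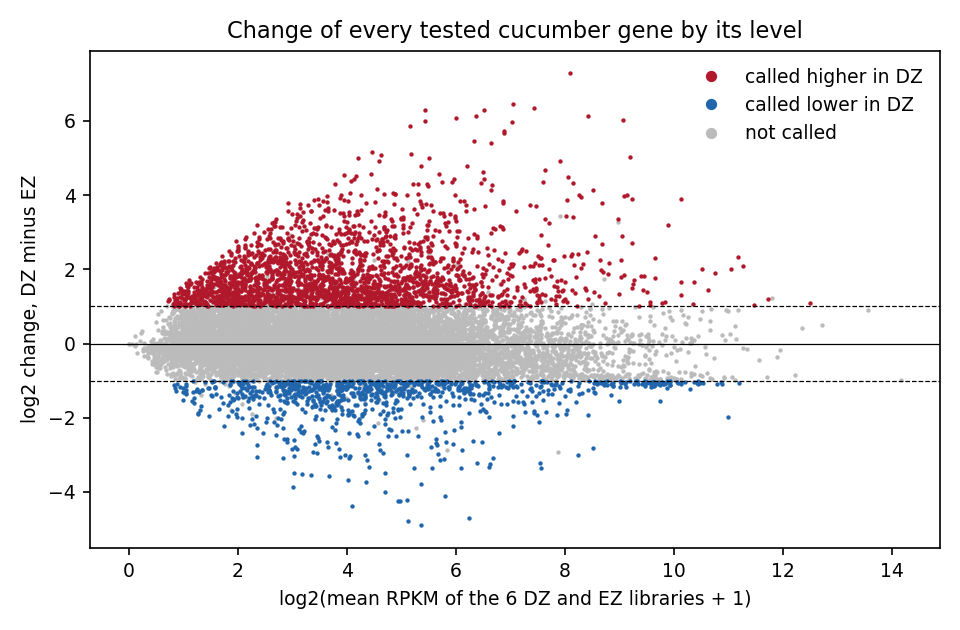
Log2 change of each of the 16693 tested cucumber genes, DZ minus EZ (vertical axis), against the log2 of its mean RPKM in the 6 DZ and EZ libraries plus 1 (horizontal axis). Red points are the 2377 genes called higher in the DZ, blue points the 932 called lower, grey points were not called, and dashed lines mark 2-fold; red points reach past 6 on the log2 scale while blue points stop short of -5.

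The largest rise of all on the log2(RPKM + 1) scale was that of Cucsa.356590. It was at 700, 436 and 488 RPKM in DZ replicates 1, 2 and 3, against 4.39, 2.66 and 1.02 RPKM in the EZ replicates. The lowest DZ value was far above the highest EZ value, and the mean levels were 542 ± 140 RPKM in DZ and 2.69 ± 1.68 RPKM in EZ (SD, n = 3 each), a ratio of 201. Its log2 change was 7.28 ± 0.32 (standard error, limma adjusted p = 1.64e-06). In the MZ it was listed at 0, 0.121 and 0.202 RPKM.

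On the same scale, Cucsa.130300 had the largest rise after Cucsa.356590 among genes at 1 RPKM or more in all 6 libraries. Its DZ values were 275, 221 and 286 RPKM, against 2.95, 2.13 and 1.07 RPKM in EZ. The groups did not overlap, and the DZ values of this gene were closer to each other than those of Cucsa.356590. The log2 change was 6.46 ± 0.33 (limma adjusted p = 2.73e-06), and the ratio of the mean levels, 260 RPKM in DZ over 2.05 RPKM in EZ, was 127. It was low in the MZ as well, with 0.234, 0 and 1.35 RPKM.

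Cucsa.157120 fell furthest. It had 1.16, 3.83 and 0.764 RPKM in the DZ libraries, against 61.3, 89.3 and 85.4 RPKM in the EZ libraries. DZ replicate 2 was the highest of its group and still far below every EZ library. The mean levels were 1.92 RPKM in DZ and 78.7 RPKM in EZ, a 41-fold difference, and the log2 change was -4.90 ± 0.36 (limma adjusted p = 1.6e-05). The MZ libraries, at 77.6, 48.9 and 75.9 RPKM, were close to the EZ libraries in this gene.

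Cucsa.038810 fell almost as far on that scale, with 1.22, 1.8 and 1.33 RPKM in DZ against 56.1, 76.4 and 66.3 RPKM in EZ. By the ratio of mean RPKM it fell further, 45.7-fold against the 41-fold of Cucsa.157120. The 3 DZ values lay close together, and the log2 change was -4.78 ± 0.22 (limma adjusted p = 1.88e-06). Here the zone in the middle was the highest, since the MZ libraries had 38.5, 19.9 and 29.9 RPKM. The directions and calls of all 4 genes held under every alternative in which they were tested.

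**Figure D2:**
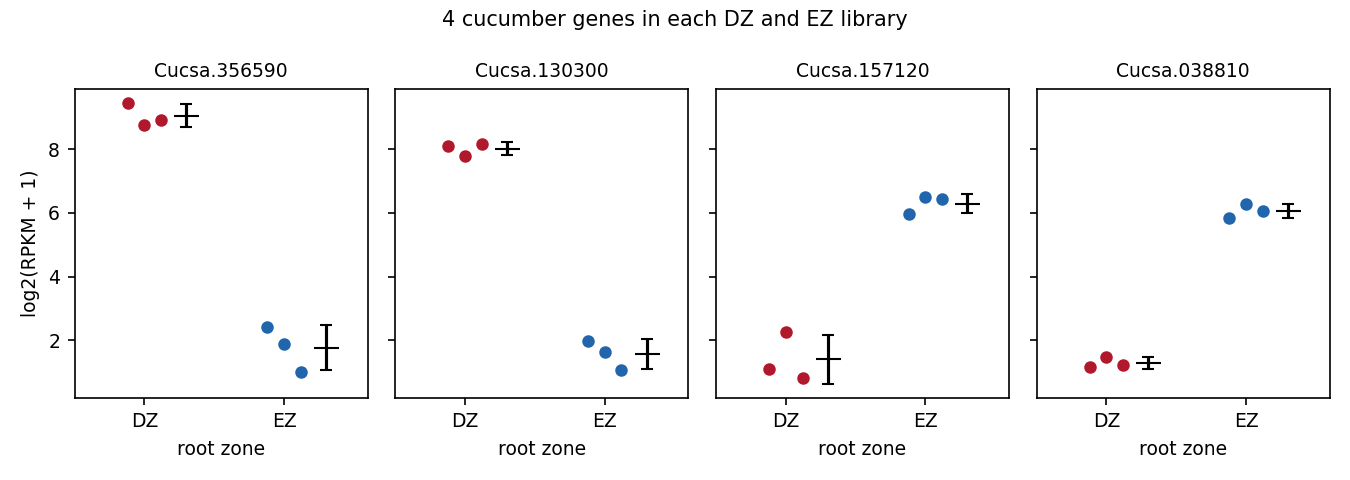
Level of the 2 named genes that rose (left panels) and the 2 that fell (right panels) in each library, as log2(RPKM + 1). Each dot is a library, DZ in red and EZ in blue, with replicates 1, 2 and 3 from left to right and the black mark showing the mean ± SD of 3 libraries; DZ and EZ values do not overlap in any panel.

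On the deposited scale, the share of genes called lower rose with level from 1 RPKM upward. The share called higher was largest from 1 to 5 RPKM, where most of the genes called higher met the filter only through the DZ libraries. Genes were banded by their mean RPKM over the 9 libraries. Of 5141 genes with a mean under 1 RPKM, 392 met the filter, 238 of them only with the help of the DZ libraries, so nothing is read from that band. Of 3578 tested genes between 1 and 5 RPKM, out of 3628 in the table, 20.3% were called higher and 2.26% lower. Without the DZ libraries 599 of the 3578 would not have met the filter, among them 425 of the 726 called higher. No gradient of rises with level is therefore read from these shares. Between 5 and 20 RPKM (6061 genes) the shares were 14.4% and 5.18%, and between 20 and 100 RPKM (5174 genes) they were 10.7% and 6.47%. At 100 RPKM or more (1488 genes) 10% were called higher and 13% lower, an order that quantile normalization turned (11.2% higher and 9.07% lower). With quantile normalization the shares called higher were uneven, with 16.3% from 1 to 5 RPKM, 12.7% from 5 to 20 RPKM and 9.91% from 20 to 100 RPKM. The shares called lower in these bands were then 6.15%, 7.89% and 8.02%, so that the rise with level was much smaller than as deposited. As deposited, the median log2 change was 0.18 in genes between 1 and 5 RPKM and -0.34 in genes at 100 RPKM or more. The median standard error was larger in the lower of these 2 bands, at 0.20 against 0.14. With a pseudocount of 0.1 RPKM, the share called higher went from 25.2% in the band from 1 to 5 RPKM to 9.54% in the band of 100 RPKM or more, and the share called lower from 5.42% to 13.1%. Both alternatives for the bands were chosen after seeing the data.

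**Figure D3:**
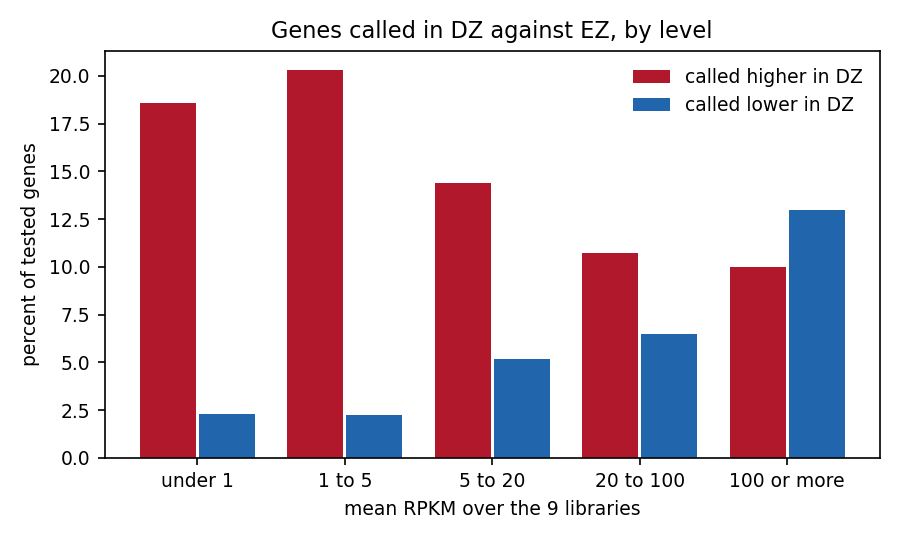
Percent of tested genes called higher (red) and lower (blue) in the DZ than in the EZ, for genes banded by mean RPKM over the 9 cucumber libraries. The share called higher is 20.3% from 1 to 5 RPKM and 10% at 100 RPKM or more, while the share called lower is 2.26% and 13%. From 1 to 5 RPKM, 425 of the 726 genes called higher met the filter only with the DZ libraries. After quantile normalization the top band has 11.2% higher and 9.07% lower instead. The band under 1 RPKM holds only 392 of 5141 genes because of the filter.

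Genes that rose in the DZ were mostly low throughout the younger root. Their median level was 1.71 RPKM in MZ, 4.49 RPKM in EZ and 20 RPKM in DZ, while the median of all tested genes was 12.1, 12.6 and 13.7 RPKM. In the MZ, 974 of the 2377 genes (41%) had a mean under 1 RPKM, against 9.68% of all tested genes. Of those 974 genes, 573 met the filter only with the help of the DZ libraries, as did 866 of all 1616 tested genes that low in the MZ. The filter leaves out genes that are low in every zone, which lowers the share among all tested genes. Of the 21503 cucumber rows, 15103, 15037 and 15114 were at 1 RPKM or more in MZ replicates 1, 2 and 3. The size of the contrast between the 2 shares is therefore not read. In the EZ, 477 of the 2377 genes (20.1%) were under 1 RPKM. The DZ held the highest mean of the 3 zones in 2347 of the 2377 genes, and the MZ held it in 30. Because the genes were chosen as higher in DZ than in EZ, their DZ and EZ levels describe the choice, and the MZ levels are given with no test.

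Genes that fell in the DZ had their highest mean in the EZ or the MZ, as their choice as lower in DZ than in EZ nearly fixes. The EZ held the highest mean of the 3 zones in 517 of the 932 genes (55.5%), and the MZ held it in the other 415 (44.5%). Among all tested genes the EZ held it in 19% and the MZ in 42.5%. The choice favours genes high in the EZ, so the split is given with no test. Cucsa.038810 was highest in the EZ, and so was Cucsa.157120 by its means, though it was nearly level between MZ and EZ. The median level of the 932 genes was 26.5 RPKM in MZ, 32.1 RPKM in EZ and 10.7 RPKM in DZ. A DZ mean under 1 RPKM was found in 76 of them (8.15%), against 3.46% of all tested genes, a difference that the choice also favours.

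**Figure D4:**
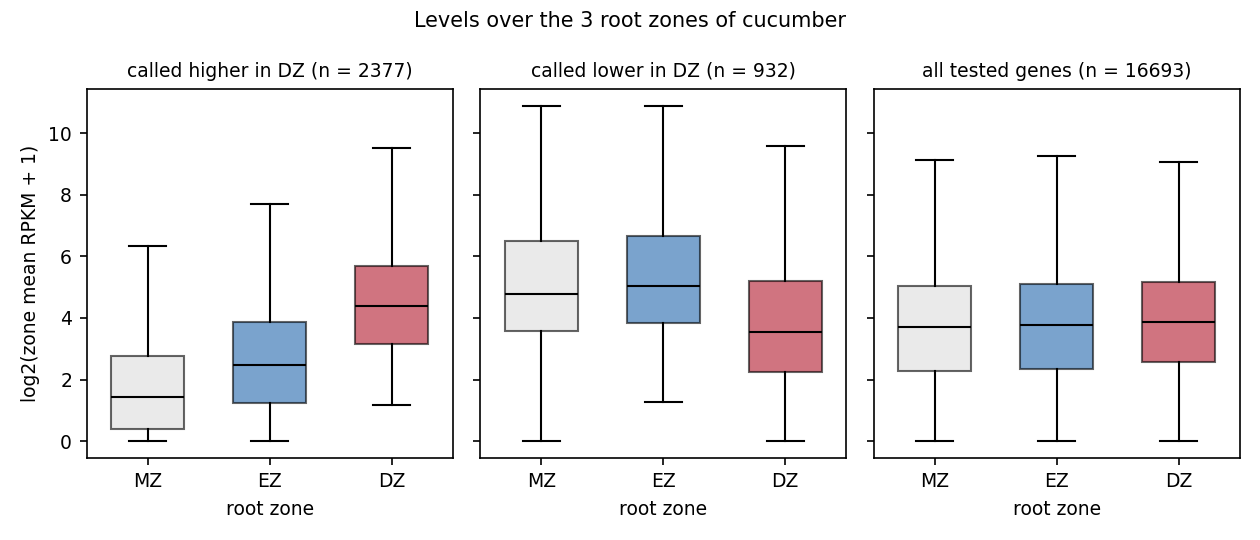
Zone means as log2(RPKM + 1) in MZ, EZ and DZ for genes called higher in the DZ (left), genes called lower (middle) and all tested genes (right). Boxes span the quartiles with the median as a line, and whiskers reach to the last value within 1.5 times the box height; the genes called higher have medians of 1.71, 4.49 and 20 RPKM along the root, and those called lower have 26.5, 32.1 and 10.7 RPKM.

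The 2377 genes that rose took up 21.2%, 20% and 22.1% of the summed RPKM of the DZ libraries, against 7.55%, 4.79% and 5.25% of the EZ libraries. EZ replicate 1 was the highest of the EZ libraries in this sum. The 932 genes that fell took up 7.34%, 7.37% and 6.73% in DZ, against 14.7%, 17.9% and 16.6% in EZ, and here EZ replicate 1 was the lowest of the EZ libraries. The position of EZ replicate 1 on the line from MZ to DZ moves with both sums, and its part in them was not tested.

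More genes went above a set level in the DZ after a low level in the EZ than the other way round. Under 1 RPKM in every EZ library and at 5 RPKM or more in every DZ library were 65 genes, and 10 genes had the opposite pattern. Their median mean level was 13 RPKM in DZ for the 65 genes and 13.6 RPKM in EZ for the 10. Only 3 of the 65 were listed at 0 in all 3 EZ libraries, and 11 of them reached 20 RPKM in every DZ library. Of the 65 genes, 60 were also under 1 RPKM in every MZ library, whereas 7 of the 10 genes low in the DZ were at 5 RPKM or more in every MZ library. All 65 and all 10 were also called, against 14.2% and 5.58% of tested genes, which their definition nearly fixes. A rule that every library must meet can only keep or gain genes when a library is left out. Without EZ replicate 1 the numbers were 107 and 17. There were 98 genes of the first pattern without DZ replicate 2, and 16 of the opposite pattern without DZ replicate 1.

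More genes reached 1 RPKM in the DZ libraries than in the EZ libraries. At 1 RPKM or more were 16540, 16121 and 16131 genes in the DZ libraries, against 15641, 15532 and 15509 genes in the EZ libraries. Every DZ library was above every EZ library, and the means differed by 703 genes (exact permutation test, two-sided, p = 0.1, the smallest that 3 against 3 libraries can give). At 10 RPKM or more the means differed by 446 genes. The estimated relative depth was 1.07, 1.23 and 1.38 in the DZ libraries against 1.11, 1.1 and 1.31 in the EZ libraries, and its part in the difference was not tested.

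The most abundant genes of the zones overlapped in part. Among the 50 genes with the highest mean in the DZ and the 50 with the highest mean in the EZ, 25 were shared. Of the 50 most abundant DZ genes 15 were called higher and 1 lower, and of the 50 most abundant EZ genes 3 were called higher and 14 lower, against 14.2% and 5.58% of all tested genes. Choosing genes by their DZ mean favours rises and by their EZ mean falls, so nothing is read from these counts. The 50 most abundant genes of each library took up 16.8%, 19% and 18.2% of its summed RPKM in DZ, against 17.2%, 16.9% and 17.1% in EZ. DZ replicate 1 lay below all EZ libraries and the other DZ libraries above them, so the groups overlapped (difference of means 0.904 percentage points, exact permutation test, two-sided, p = 0.4). The difference was 0.175 percentage points with the 100 most abundant genes and -2.9 points with the 500 most abundant, and it was 0.411 points without DZ replicate 2 and 1.48 points without DZ replicate 1.

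The single most abundant gene changed between the zones. The leading gene of the DZ had 14246, 17302 and 15803 RPKM in DZ, against 9370, 6911 and 9033 RPKM in EZ, and 731, 623 and 897 RPKM in the MZ libraries. The leading gene of the EZ had 13126, 12254 and 11638 RPKM in DZ, against 22163, 26426 and 25257 RPKM in EZ, and 36001, 38441 and 38201 RPKM in MZ. Neither pair of groups overlapped. Their log2 changes of 0.91 ± 0.17 (limma adjusted p = 0.00172) and -0.99 ± 0.11 (limma adjusted p = 0.000104) passed the test of significance but stayed just under 2-fold, so neither was called.

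Genes with neighbouring locus numbers were called together more often than the background, as a description with no test. Locus numbers run in steps of 10, and the sources used here do not say what they order. In 12895 pairs of tested genes with consecutive numbers, the next gene was also called higher after 20.8% of the called rises, while 14.1% of the genes in these pairs were called higher. The next gene was also called lower after 10.8% of the called falls, while 5.43% of these genes were called lower. Runs of 3 or more consecutive rises numbered 61 and held 202 genes, with 5 in the longest. Runs of falls numbered 9, with 28 genes. Consecutive genes can be near-identical copies that share reads, which these values cannot separate.

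Set beside the step before it, DZ against EZ called fewer genes. DZ against EZ gave 2377 rises and 932 falls (19.8% of the 16693 tested), with 762 and 126 at 4-fold or more. EZ against MZ gave 2575 rises and 1855 falls (26.5%), with 766 and 115 at 4-fold or more. With a pseudocount of 0.1 RPKM the counts at 4-fold or more were 1172 and 211 for DZ against EZ and 1381 and 224 for EZ against MZ. Both comparisons use the EZ libraries, so their gene lists were not set against each other.

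Among the 6 species cut into 3 zones, cucumber had the most one-sided calls between DZ and EZ, apart from soybean, where limma called 1 gene of 33244 (0.00301%) and 5085 had an unadjusted p under 0.05. Rises made up 71.8% of the cucumber calls, 54.6% of the Arabidopsis calls, 54.6% of the rice calls, 60.6% of the tomato calls and 49.5% of the maize calls. At 4-fold or more, higher calls outnumbered lower ones in each of these species. They numbered 762 and 126 in cucumber, 814 and 192 in rice, and 1872 and 859 in Arabidopsis. Tomato had 1396 and 546, and maize 1616 and 1187. With quantile normalization the values were 62.1% in cucumber and 49.4% to 50.9% in those 4 species. The share of tested genes called was 19.8% in cucumber, close to the 18.9% of rice and below the 36% of Arabidopsis, the 29.3% of tomato and the 33.8% of maize. Called higher and called lower were 14.2% and 5.58% of the tested genes in cucumber, 19.6% and 16.4% in Arabidopsis, 10.3% and 8.58% in rice, 17.8% and 11.6% in tomato, and 16.7% and 17.1% in maize. The cucumber libraries had the smallest median standard error of a log2 change, 0.16, against 0.21 to 0.28 in the other 5 species. The median absolute log2 change was 0.47 in cucumber, 0.34 in soybean and 0.58 to 0.76 in the other 4. Tomato seedlings were sampled 6 days after plating, and those of the other species with 3 zones at 4 days. Genes, depth and the length of root cut as a zone also differ between species, and these differences were not tested. Rises that met the filter only with the help of the DZ libraries were counted in cucumber alone.

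For 2 measures taken per library, the difference between DZ and EZ in cucumber was set beside that in each other species. The permutation shuffled zone labels in both species, so it assumes no zone difference in either. Its p-values therefore cannot tell whether 2 species differ in the size of their zone difference. The number of genes at 1 RPKM or more was 4.42% higher in DZ than in EZ in cucumber, as a percentage of the species mean, and 1.73% to 5.29% higher in the other 5 species. The adjusted p was 0.7 or more for each of them (exact permutation of zone labels within species, two-sided, over 10 tests). For the share of the 50 most abundant genes the lowest p was that of rice. The share differed between DZ and EZ by 0.904 percentage points in cucumber and by -3.56 points in rice, a difference of 4.46 points (exact permutation, p = 0.02, adjusted p = 0.2). Rice DZ libraries had 18.6%, 16.1% and 17.5%, against 19.1%, 22.2% and 21.6% in rice EZ libraries.

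**Figure D5:**
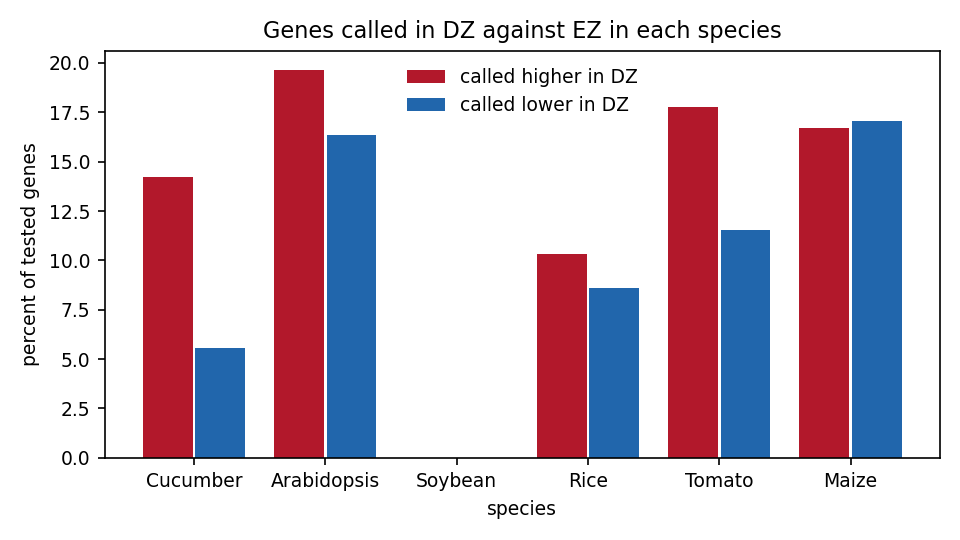
Percent of tested genes called higher (red) and lower (blue) in DZ than in EZ, in cucumber and in the 5 other species with 3 zones, each fitted on its own 9 libraries. Cucumber has 14.2% higher and 5.58% lower, and soybean has 1 called gene, so its bars are not visible.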

How the data were processed

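The unit of the deposited values is RPKM, per the file names (read number relative to gene length and library size). The authors gave them in a table whose columns stack the libraries of 1 zone and number over species. Tools named in the submitters' processing notes are TopHat2 and FastQC, and per the labels cucumber reads were mapped with the Phytozome annotation Cs122. The sources used here do not give the counter, gene lengths or strandedness. Absolute depth is unknown, so values near that of 1 read cannot be marked. Among cucumber rows 29 held values above 0 and under 0.001 RPKM in a DZ or EZ library, and 205 tested genes had a value under 0.001 RPKM beside 1 RPKM or more in another library of the same zone. An RPKM of 0 is therefore given as listed at 0.

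The 9 cucumber libraries were fitted together in limma 3.58.1 (R 4.3.3) on log2(RPKM + 1), which understates changes of low genes, with a mean trend, robust estimation and two-sided tests. P-values were adjusted by Benjamini-Hochberg over the 16693 genes at 1 RPKM or more in at least 3 libraries. The named genes are, among called genes without overlap of DZ and EZ, the largest rise and fall of all and the largest among genes at 1 RPKM or more in all 6 libraries. Single values per library were compared by exact permutation. The limma p-values set a difference between zones against the spread between these libraries. The fit was run on simulated data with normal noise and changes of a single size in genes that were not low. That setting differs from these data, so it checks the code and not the results. Other steps used pandas 2.3.3, NumPy 2.4.6 and matplotlib 3.10.9 under Python 3.11.15. Members, lists and rules were chosen with earlier results of these data known.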

Additional observations from a re-analysis of the deposited data

How the results depend on the processing

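Leaving out 1 of the 9 cucumber libraries at a time, with the genes tested kept, gave 2152 to 2615 genes higher and 815 to 1191 lower in DZ than in EZ in limma. Under 11 other settings (pseudocount, filter, scaling, fit, replicate block, genes with a gap within a zone left out) the counts were 1846 to 2675 and 873 to 1310, and no gene was called in the opposite direction under any setting. Leaving out the genes with a gap was chosen after seeing the data. With no minimum change the counts were 4461 and 4284. The 83 alternative values of the 4 named genes kept direction and call. The replicate block gave 2399 higher and 943 lower with 6 libraries and 2403 and 943 with 9. Deviations of same-numbered DZ and EZ libraries correlated at 0.071, 0.2 and 0.29, and those of differently numbered ones at -0.22 to 0.015. Each of the 6 libraries correlated best with its own number. The deviations were taken from the zone mean and cancel within a zone, so higher same-number values force lower ones elsewhere. These values are thus not independent, and no test of pairing is given. The main fit did not take the numbers as pairs, and the replicate block is given for that reason.

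Genes low in the EZ and present in the DZ numbered 65, and 197 or 21 with an upper limit of 2 or 10 RPKM and 33 with a lower limit of 0.5 RPKM. Leaving out a library gave 69 to 107. Genes of the opposite pattern numbered 10, and 31, 2 and 3 under the same limits, and 10 to 17 without a library. The difference in the share of the 50 most abundant genes, 0.904 percentage points, became 0.618 points with 10 genes, 0.175 points with 100 and -2.9 points with 500. Without a library it was 0.411 to 1.48 points, and the difference in detected genes was 565 to 775. The 1 called soybean gene became 0 with quantile normalization and 0 with a pseudocount of 0.1 RPKM (5162 and 4703 soybean genes at an unadjusted p under 0.05 in limma). No other count of calls at 2-fold or more, in the other species or in EZ against MZ, moved by over 1.5 times. With a pseudocount of 0.1 RPKM the calls at 4-fold or more became 1172 higher and 211 lower for DZ against EZ, and 1381 and 224 for EZ against MZ.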

Other observations

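A group of very abundant genes lay in a narrow window of falls around 2-fold. It was noticed in the plot of change against level, and its limits were chosen after seeing the data, so no test is given for the group. Of 503 tested genes with a mean of 300 RPKM or more over the 9 libraries, 198 (39.4%) had a log2 change between -1.2 and -0.8, DZ minus EZ, while 22 had a change between 0.8 and 1.2. Among all tested genes the same lower window held 6.58%. All 198 genes had an adjusted p under 0.05 in limma and DZ values that did not overlap the EZ values, against 52.4% and 60.1% of all tested genes, and the window with its small standard errors nearly fixes both. The median log2 change was -0.98, which the window sets, with a median standard error of 0.14. The 2-fold limit runs through this group, so that 84 of the 198 were called lower, against 5.58% of all tested genes, a count that the window also sets.

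The same 198 genes took up 13%, 12.3% and 11.6% of the summed RPKM in the DZ libraries, against 20.6%, 26.3% and 24.6% in the EZ libraries. The window fixes this fall, so it shows only how much of the summed RPKM these genes held. In the MZ libraries they took up 34.1%, 36% and 35.8%. Their median level was 1317 RPKM in MZ, 845 RPKM in EZ and 415 RPKM in DZ. EZ replicate 1, which lay nearest to the DZ of the EZ libraries, also had the lowest EZ share. The files give no names for these genes, and no product or function was assigned to them. RPKM is relative to the reads of a library, so a lower share of these genes goes with higher values elsewhere. The part of this in the excess of rises was not tested.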
